A study of Homo sapiens with 4 samples.

Results

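The 10 circadian clock genes CLOCK, PER1, PER2, PER3, CRY1, CRY2, NR1D1, NR1D2, DBP and BHLHE40 were taken by symbol from a table of 28973 genes, and each stood on 1 row. They were measured by RNA sequencing in TOV-112D, a human cell line established from an ovarian cancer and grown in RPMI-1640 medium with fetal bovine serum. The treated group held 2 libraries labelled palmitic acid (PA), a saturated fatty acid, and the control group held 2 libraries labelled bovine serum albumin (BSA), the usual carrier of fatty acids in culture. The labels give 200 µM and 24 h for both groups. Nothing in them says that the libraries of a group came from separate cultures, so p-values reflect variation among these libraries, possibly of technical origin. A single harvest time says nothing about rhythm, and in bulk RNA fewer cells expressing a gene and less RNA per cell cannot be told apart.

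The mammalian clock is a feedback loop of transcription. CLOCK and its partner BMAL1 bind E-box sequences and switch on the PER and CRY genes, whose proteins form a complex that represses CLOCK and BMAL1. The same activators switch on NR1D1 and NR1D2, which encode the nuclear receptors REV-ERB alpha and beta, repressors of BMAL1, and DBP and BHLHE40. DBP activates genes through D-box sequences, and BHLHE40 (DEC1) competes for E-boxes. The clocks of cultured cells may be unsynchronised, which was not measured here, and PER1 is also an immediate early gene that glucocorticoids, cAMP and serum induce directly.

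Clock motifs near the start sites of these genes are printed to show which members carry the sequences on which the loop acts. Promoters were 250 bases before to 50 after each start, from RefSeq on GRCh38.p14, and all 10 genes matched, with 14 promoters. The motifs were the E-box CACGTG, an E-box variant CACGTT, the D-box TTATGTAA, the half-site AGGTCA bound by ROR and REV-ERB receptors, and the cAMP response element TGACGTCA with its half-site TGACG, searched on both strands. The whole element contains its half-site, and no matches in these promoters overlapped. Each stretch below lies before the start site and runs 5′ to 3′ on the gene's strand, with matches to the E-box, its variant or the D-box in capitals (AACGTG and TTACATAA are the variant and the D-box read on the other strand).
PER1, chr17:8152547-8152602, minus strand: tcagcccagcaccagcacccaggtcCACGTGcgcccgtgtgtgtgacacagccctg
PER2, chr2:238288777-238288832, minus strand: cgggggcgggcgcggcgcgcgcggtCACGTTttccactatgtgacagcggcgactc
PER3, chr1:7784089-7784146, plus strand: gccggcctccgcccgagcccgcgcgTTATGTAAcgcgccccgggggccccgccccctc
CRY1, chr12:107093608-107093663, minus strand: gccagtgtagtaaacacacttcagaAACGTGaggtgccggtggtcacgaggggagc
CRY2, chr11:45847262-45847317, plus strand: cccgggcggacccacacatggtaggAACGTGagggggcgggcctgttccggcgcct
NR1D1, chr17:40100727-40100782, minus strand: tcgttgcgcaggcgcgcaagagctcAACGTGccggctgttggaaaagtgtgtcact
NR1D2, chr3:23945902-23946046, plus strand: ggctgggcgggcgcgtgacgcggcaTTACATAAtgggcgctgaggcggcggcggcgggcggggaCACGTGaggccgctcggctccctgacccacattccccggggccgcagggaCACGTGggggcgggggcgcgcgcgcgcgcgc
BHLHE40, chr3:4979187-4979222, plus strand: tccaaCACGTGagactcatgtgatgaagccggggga
CLOCK, chr4:55546089-55546144, minus strand: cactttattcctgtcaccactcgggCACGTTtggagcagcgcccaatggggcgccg

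The E-box stood in 3 of the 14 promoters (PER1, NR1D2 and BHLHE40), against 7.26% of all 35116 promoters of this length. The variant stood in 5 (CLOCK, PER2, CRY1, CRY2 and NR1D1), against 5.34%. The D-box stood in 2 (PER3 and NR1D2), against 0.886%. The receptor half-site was in 3 promoters of 2 genes, PER1 and CRY2, against 13.8%. The half-site of the cAMP element was in 7 promoters of 5 genes, against 24.6%, and the whole element was in 0, against 1.85%. DBP had none of these letters in its window. A match is a description of sequence and not a measured binding site.

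The libraries held between 23722074 and 31695944 counts, and 1 CPM (a count scaled to library size, TMM-normalised here) rested on 23.0 to 31.9 counts. The BSA libraries differed from each other more than the PA libraries did (SD of the log2 ratio between replicates over 17449 tested genes, 0.49 for PA and 1.04 for BSA), and transcripts rich in GC had higher ratios between the BSA libraries (Spearman correlation 0.59 across genes). The labels conflict. Beside palmitic acid, the description of the PA libraries names a knockdown of SPTLC2 and the protocol names a hairpin against ZDHHC15. ZDHHC15 stood at 6917 ± 538 CPM in the libraries labelled PA and 8.40 ± 1.90 CPM in BSA (SD, n = 2 each), 824-fold in the fit. SPTLC2 stood at 75.6 ± 0.162 and 42.4 ± 12.1 CPM (SD, n = 2 each). Neither was thus lower in the libraries labelled PA, from which every direction below is drawn. The label palmitic acid and the higher ZDHHC15 fall on the same libraries, so their parts in any difference below cannot be told apart. Of 11 ovarian epithelial tumour markers, 7 were at 1 CPM or more in all 4 libraries, while EPCAM, KRT19, WT1 and CDH1 were not. The sum of the 11 was 7067 and 7061 CPM in PA, against 3371 and 4477 CPM in BSA. FOLR1 was the largest part of it, at 3736 and 3445 CPM in PA and 1172 and 1524 CPM in BSA. Of the 9 markers tested, 7 had a positive log2 fold change and 2 a negative one. At an unadjusted edgeR p under 0.05, 4 were higher and 0 lower, against 13.1% and 11.2% of all genes tested. The 4 endothelial marker genes summed to 3.47 and 3.22 CPM in PA, against 0.268 and 0.533 CPM in BSA, and 4 leukocyte genes to 3.37 and 2.35 CPM in PA, against 3.92 and 7.34 CPM in BSA, with none at 1 CPM in all libraries. Fibroblast genes (4, with COL1A2 at 0 throughout) summed to 126 and 161 CPM in PA and 119 and 114 CPM in BSA, and 4 neural and melanocyte genes to 79.6 and 75.1 CPM in PA and 72.97 and 42.6 CPM in BSA. The part of these differences in the clock genes' values was not tested.

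PER1, CRY2, NR1D1 and BHLHE40 stood higher in both libraries labelled PA than in either BSA library, and NR1D2 stood lower in both. No member passed edgeR's quasi-likelihood test at an adjusted p under 0.05 (0 of 10, against 0% of the 17449 genes tested). ZDHHC15, at 824-fold, did not pass either, with the smallest edgeR adjusted p of any gene (0.0544). Failure to pass thus does not show that a member's level was unchanged. At an unadjusted p under 0.05 there were 3 higher members (PER1, NR1D1 and BHLHE40) and 1 lower (NR1D2), against 13.1% of all genes higher and 11.2% lower. DESeq2 called 1 member higher, PER1, against 6.04% of genes, as did edgeR with no filter on low counts (3.06% of genes) and with the replicate number as a block (2.3%). limma called 0 members, whether with voom (against 0.00573% of genes), on log2(FPKM + 1) (1.03%) or on log2(FPKM + 0.1) (0.00522%). The groups did not overlap for 6 members, 5 higher and 1 lower, against 28.9% of all genes higher and 29.1% lower. On FPKM the groups of PER2 overlapped, which left 4 higher members and 1 lower. The median log2 fold change of the 10 members was 0.29, and that of all genes tested was -0.12. With 2 libraries in each group, the smallest p an exact two-sided permutation test allows is 0.333.

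**Figure D1:**
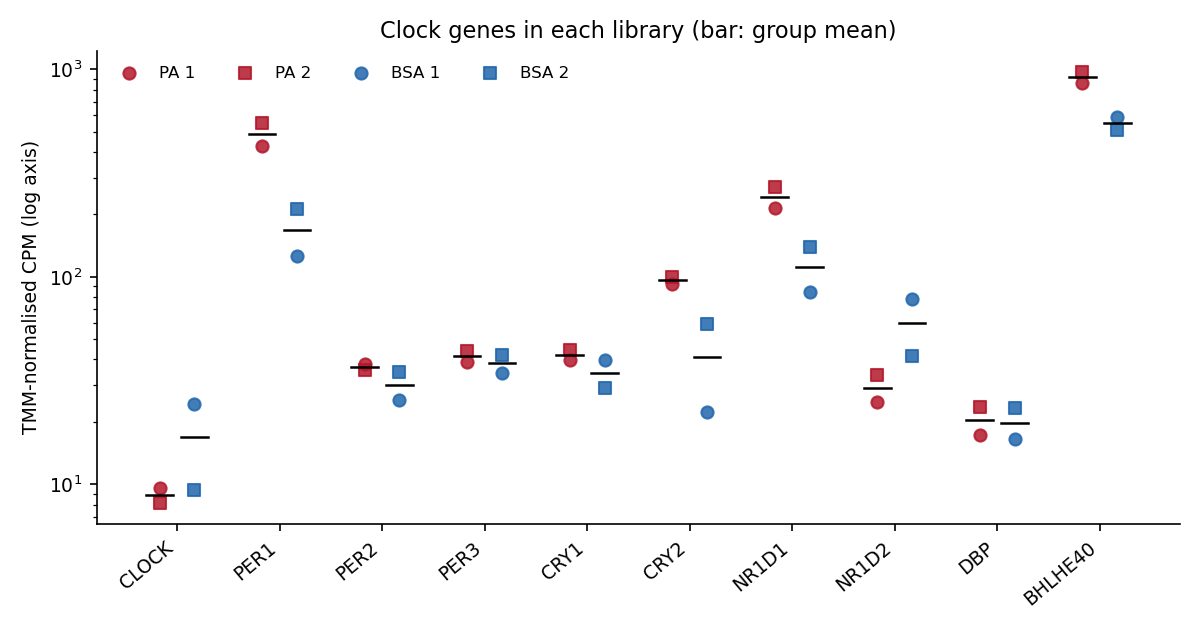
TMM-normalised CPM (log axis) of the 10 clock genes, with 1 point per library, PA (red) left of BSA (blue), and a bar at each group mean. The PA and BSA points do not overlap for PER1, PER2, CRY2, NR1D1, NR1D2 and BHLHE40, and the BSA points of CLOCK, CRY2 and NR1D2 lie far apart.

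On the length-scaled FPKM values, BHLHE40 was the most abundant member in both groups (253 ± 19.3 FPKM in PA and 160.0 ± 19.9 in BSA; SD, n = 2 each, here and below). NR1D1 (89.96 ± 14.2 FPKM in PA and 43.5 ± 13.8 in BSA) and PER1 (67.9 ± 11.6 and 24.6 ± 8.27) followed, and their order held in each of the 4 libraries. In PA, CRY2 (15.2 ± 0.749 FPKM) and CRY1 (8.59 ± 0.636) came next. PER2, PER3 and NR1D2 then lay within their spread of each other, at 5.07 ± 0.286, 4.97 ± 0.381 and 4.91 ± 0.979 FPKM in PA. In BSA the middle of the order was not resolved, with NR1D2 at 10.7 ± 4.91, CRY1 at 7.43 ± 1.79 and CRY2 at 6.71 ± 4.18 FPKM. DBP (3.07 ± 0.642 FPKM in PA and 3.13 ± 0.681 in BSA) and CLOCK (0.753 ± 0.0928 and 1.51 ± 0.986) were the lowest in both groups.

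CLOCK, the activator of the loop, gave no difference that held across the control libraries (ENSG00000134852, hg38 chromosome 4, 55427903 to 55546909, minus strand). Counts of CLOCK were 280 and 188 in the PA libraries and 731 and 299 in BSA replicates 1 and 2, or 9.63 and 8.18 CPM in PA and 24.5 and 9.38 CPM in BSA. BSA replicate 1 stood alone at the top, and BSA replicate 2 lay beside the PA libraries. The log2 fold change was -0.93 ± 0.52 (SE; edgeR adjusted p = 0.320). It was -1.44 against BSA replicate 1 alone and -0.05 against BSA replicate 2 alone, and -0.17 after correction for GC content and length (a smooth trend over both was subtracted). TMEM165, on the other strand, shares 25495 bases of its interval and had a log2 fold change of 0.16.

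BMAL1, the partner of CLOCK, stood at 69.2 and 69.2 CPM in PA and 55.0 and 59.3 CPM in BSA, with both PA libraries above both BSA libraries (log2 fold change 0.27 ± 0.21 SE; edgeR adjusted p = 0.440). NPAS2, which can take the place of CLOCK beside BMAL1, was at 163 and 175 CPM in PA, against 227 and 266 CPM in BSA (log2 fold change -0.55 ± 0.20; adjusted p = 0.198). On FPKM, the level of NPAS2 was 15.6 and 19.7 times that of CLOCK in the PA libraries and 8.54 and 26.1 times in the BSA libraries. NPAS2 was thus the more abundant of both in each library.

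PER1 had the largest difference of the 10 members in the fit of all 4 libraries (ENSG00000179094, hg38 chromosome 17, 8140472 to 8156506, minus strand), while against BSA replicate 1 alone that of CRY2 was larger. PER1 encodes a period protein, a core part of the repressor complex. Counts were 12404 and 12641 in PA and 3755 and 6748 in BSA, or 427 and 549.8 CPM in PA and 126 and 212 CPM in BSA. Both PA libraries lay above both BSA libraries by more than the gap within either group. The level was 2.89-fold that of BSA (log2 fold change 1.53 ± 0.33 SE), with an unadjusted p of 0.00584 and an adjusted p of 0.0960 in edgeR's quasi-likelihood test. PER1 passed with DESeq2 (adjusted p = 0.00723), without a filter on low counts (0.0138) and after GC and length correction (log2 fold change 1.25, edgeR adjusted p = 0.0344). It did not pass in edgeR with RLE factors (adjusted p = 0.0952), upper-quartile factors (0.118) or a filter of 1 CPM in 2 libraries (0.0943). In limma it did not pass with voom (adjusted p = 0.0956), on log2(FPKM + 1) (0.0820) or on log2(FPKM + 0.1) (0.107). Against BSA replicate 1 alone the log2 fold change was 1.97 and against BSA replicate 2 alone it was 1.23, each called in fits that take their spread from the PA libraries only.

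PER2 and PER3, which encode the other period proteins, had small differences. PER2, the period protein with the best established role in keeping the loop running, was at 38.1 and 35.6 CPM in PA and 25.6 and 34.7 CPM in BSA (ENSG00000132326, chromosome 2, 238244044 to 238290102, minus strand; log2 fold change 0.29 ± 0.28 SE, edgeR adjusted p = 0.531). The PA values lay just above BSA replicate 2, and after GC and length correction the log2 fold change was -0.0096. PER3 (ENSG00000049246, chromosome 1, 7784291 to 7845177, plus strand) was at 39.0 and 43.9 CPM in PA and 34.4 and 42.3 CPM in BSA, with groups that overlapped (0.11 ± 0.25, adjusted p = 0.803). A long noncoding RNA on the other strand within PER3, ENSG00000236266, had 18 and 30 counts in PA and 0 and 2 in BSA.

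PER1 made up more of the summed PER expression in the libraries labelled PA than in BSA. Its share of the FPKM of the 3 genes was 85.7% and 88.3% in the PA libraries and 69.6% and 75.0% in the BSA libraries. The sum itself was 69.7 and 86.2 FPKM in PA, against 26.9 and 40.6 FPKM in BSA. The groups do not overlap in either measure.

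**Figure D2:**
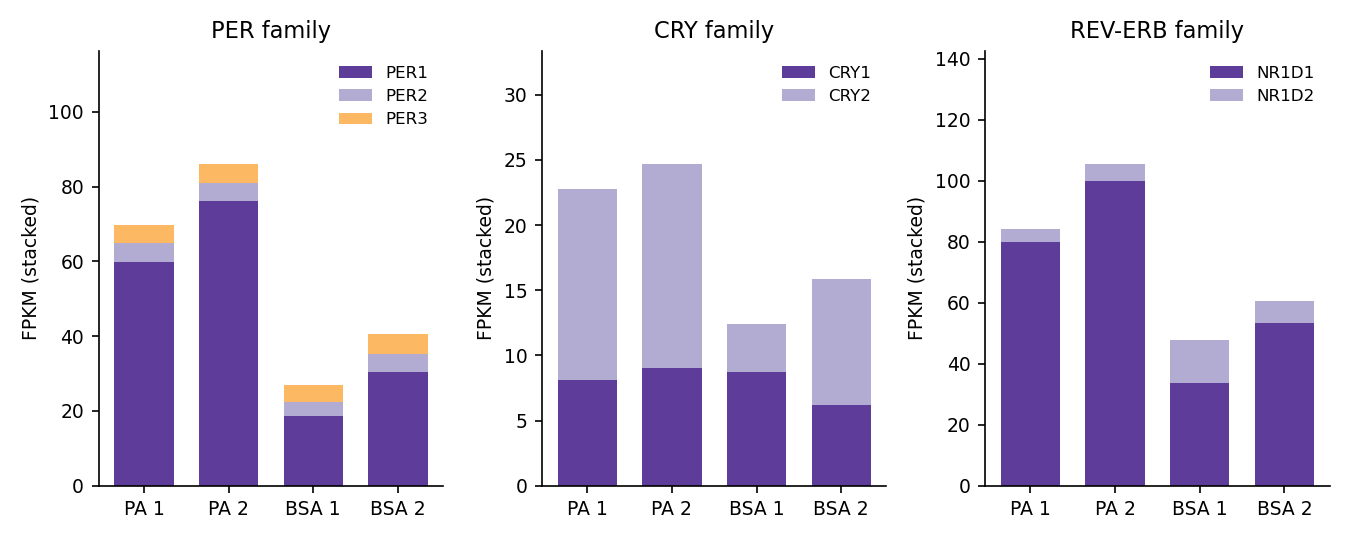
Stacked FPKM of the PER, CRY and REV-ERB genes in each library (each panel has its own linear axis from 0). PER1 and NR1D1 hold most of their families in all 4 libraries, and CRY2 holds 30.1% of its family in BSA replicate 1 and 61.1% to 64.3% in the other libraries.

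CRY2 and CRY1 encode cryptochromes, the partners of the period proteins that do most of the repression. CRY2 (ENSG00000121671, hg38 chromosome 11, 45847118 to 45883248, plus strand) had 2690 and 2307 counts in PA and 666 and 1899 in BSA, or 92.5 and 100.3 CPM in PA and 22.3 and 59.6 CPM in BSA. The PA libraries lay close together above both BSA libraries, which differed by a log2 ratio of 1.42. The log2 fold change was 1.24 ± 0.49 (SE; edgeR adjusted p = 0.212). It was 2.12 against BSA replicate 1 alone, 0.71 against BSA replicate 2 alone and 1.00 after GC and length correction.

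CRY1 (ENSG00000008405, hg38 chromosome 12, 106991364 to 107093549, minus strand) was at 39.7 and 44.6 CPM in PA and 39.9 and 29.3 CPM in BSA, with overlapping groups (log2 fold change 0.29 ± 0.28 SE, edgeR adjusted p = 0.537). Its log2 fold change was 0.80 ± 0.37 after GC and length correction, 0.09 against BSA replicate 1 alone and 0.54 against BSA replicate 2 alone. CRY2 had 1.80 and 1.74 times the FPKM of CRY1 in the PA libraries, against 0.431 and 1.57 times in the BSA libraries. The ratio in BSA replicate 2 thus lay nearer to PA than to BSA replicate 1.

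NR1D1 and NR1D2, the REV-ERB genes, had differences of opposite sign. NR1D1 (ENSG00000126368, hg38 chromosome 17, 40092793 to 40100589, minus strand) had 6232 and 6241 counts in PA and 2538 and 4439 in BSA, or 214 and 271 CPM in PA and 84.95 and 139 CPM in BSA. Both PA values lay above both BSA values. The level was 2.17-fold that of BSA (log2 fold change 1.12 ± 0.32 SE; edgeR adjusted p = 0.138). After GC and length correction it was 0.97 and passed (adjusted p = 0.0490). It was 1.53 against BSA replicate 1 alone and 0.82 against BSA replicate 2 alone.

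THRA, the thyroid hormone receptor gene on the other strand, shares 1075 bases with NR1D1, and the use of strand in counting is not given in the sources used here. THRA was at 69.3 and 82.0 CPM in PA and 61.4 and 52.1 CPM in BSA (log2 fold change 0.42 ± 0.23 SE; edgeR adjusted p = 0.315), so its level was lower than that of NR1D1 in every library.

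NR1D2 (ENSG00000174738, hg38 chromosome 3, 23945286 to 23980617, plus strand) had 725 and 770 counts in PA and 2347 and 1321 in BSA, or 24.9 and 33.5 CPM in PA and 78.6 and 41.4 CPM in BSA. Both PA libraries lay below both BSA libraries. The log2 fold change was -1.04 ± 0.39 (SE; edgeR adjusted p = 0.200), and it was -1.42 against BSA replicate 1 alone, -0.49 against BSA replicate 2 alone and -0.50 after GC and length correction. On FPKM, NR1D1 stood at 18.9 and 17.9 times NR1D2 in the PA libraries and at 2.38 and 7.40 times in the BSA libraries, without overlap. This ratio was not corrected for GC content, which was 59.5% for NR1D1 and 38.5% for NR1D2. NKIRAS1, on the other strand, shares 1306 bases with NR1D2 and had a log2 fold change of 0.43 ± 0.56.

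BHLHE40 was the member whose BSA libraries differed least in log2 ratio (-0.20), and its fold change moved least with the choice of control library. BHLHE40 (ENSG00000134107, hg38 chromosome 3, 4979437 to 4985323, plus strand) also responds to hypoxia and other stresses. It had 25009 and 22273 counts in PA and 17542 and 16268 in BSA, or 860.0 and 969 CPM in PA and 587 and 510.2 CPM in BSA. Both PA libraries lay above both BSA libraries. The level was 1.67-fold that of BSA (log2 fold change 0.74 ± 0.23 SE; edgeR adjusted p = 0.156), 0.65 against BSA replicate 1 alone, 0.86 against BSA replicate 2 alone and 0.54 after GC and length correction.

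DBP, the D-box activator and an output often used to read the loop, had the smallest difference in the fit of all 4 libraries (ENSG00000105516, hg38 chromosome 19, 48630030 to 48637379, minus strand). Counts of DBP were 503 and 542 in PA and 492 and 742 in BSA, or 17.3 and 23.6 CPM in PA and 16.5 and 23.3 CPM in BSA. The groups interleaved, with a log2 fold change of 0.04 ± 0.34 (SE; edgeR adjusted p = 0.952) whose sign turned in 5 of the alternatives. PER2, PER3 and CLOCK were nearer to 0 than DBP against BSA replicate 2 alone and after GC and length correction, and CRY1 and PER3 were so against BSA replicate 1 alone. SPHK2, a sphingosine kinase gene on the other strand that shares 688 bases with DBP, was at 8.15 and 5.09 CPM in PA and 14.1 and 21.0 CPM in BSA (log2 fold change -1.41 ± 0.41; adjusted p = 0.142).

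**Figure D3:**
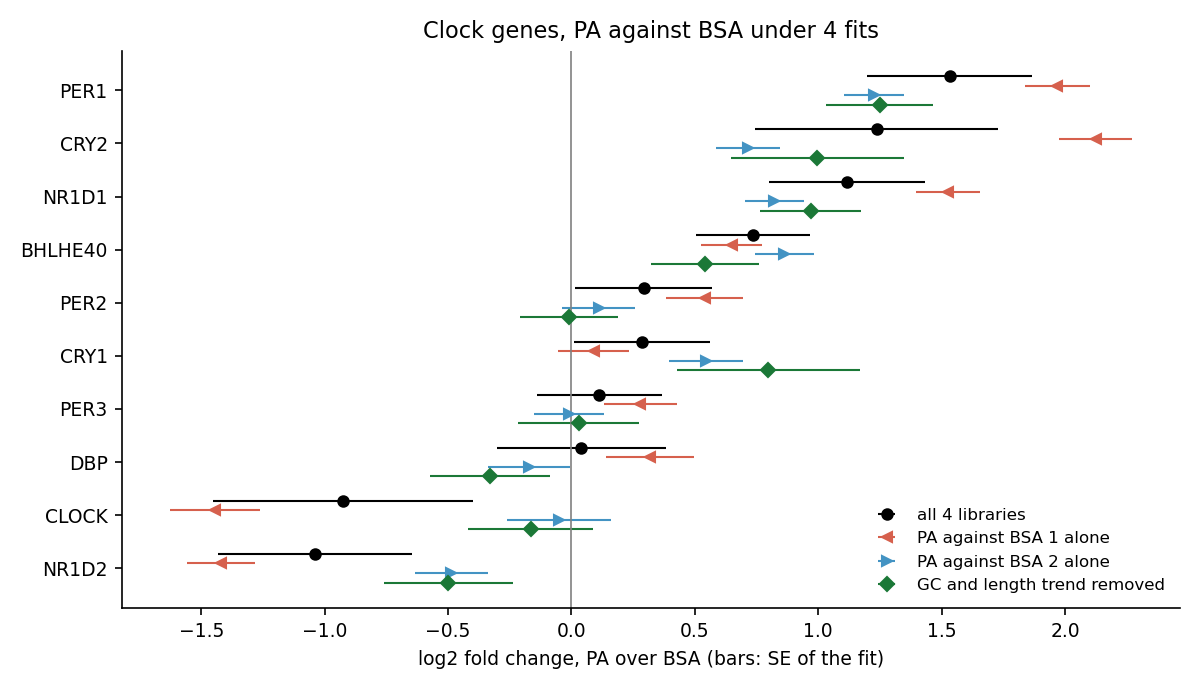
Log2 fold change of PA over BSA for each clock gene, with SE bars, in the fit of all 4 libraries (black), against BSA replicate 1 alone (left-pointing), against BSA replicate 2 alone (right-pointing) and after GC and length correction (diamonds). PER1, CRY2, NR1D1 and BHLHE40 lie right of 0 and NR1D2 left of 0 in all 4 fits, while CLOCK lies near 0 against BSA replicate 2 alone. Fits against a single BSA library take their spread from the PA libraries only. Their shorter bars thus leave out the difference between the BSA libraries and do not mark greater precision.

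Leaving out BSA replicate 1 gave 5 members called higher (PER1, CRY1, CRY2, NR1D1 and BHLHE40) and 1 called lower (NR1D2), against 25.3% of all genes higher and 22.6% lower. Leaving out BSA replicate 2 gave 5 higher (PER1, PER2, CRY2, NR1D1 and BHLHE40) and 2 lower (CLOCK and NR1D2), against 27.3% and 30% of all genes. Without PA replicate 1 edgeR called 0 members, against 0.0864% of genes, and without PA replicate 2 it called 0, against 0.0481%. At an unadjusted p under 0.05 there were 2 higher members without PA replicate 1, against 4.42% of genes higher, and 1 without PA replicate 2, against 3.88%. After GC and length correction 2 were called higher, PER1 and NR1D1, against 5.46% of genes.

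GC content differed between the members, and for all of them except BHLHE40 and PER3 the ratio between the BSA libraries had the sign of the median of genes of like GC content. The longest transcripts of CLOCK, CRY1 and NR1D2 had 37.2%, 37.2% and 38.5% GC, and their log2 ratios of BSA replicate 2 over replicate 1 were -1.38, -0.44 and -0.92. PER1, NR1D1, DBP and CRY2 had 62.7%, 59.5%, 57.8% and 57.0% GC, with ratios of 0.75, 0.71, 0.50 and 1.42, and PER2 had 52.4% GC and a ratio of 0.44. BHLHE40 and PER3 went the other way. BHLHE40 (52.0% GC) had a ratio of -0.20, against a median of 0.30 among genes of like GC content, and PER3 (46.2% GC) had 0.30, against -0.17. Among tested genes within 5 percentage points of GC of each, the median of that ratio was -1.14 around CLOCK and 0.42 around PER1, and the median log2 fold change of PA over BSA was -0.64 around CLOCK and 0.12 around PER1. The part of GC content in each member's difference was not tested beyond the correction given above. The FPKM ratios and shares within families, and the ratio of NPAS2 to CLOCK, were not corrected for GC content.

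**Figure D4:**
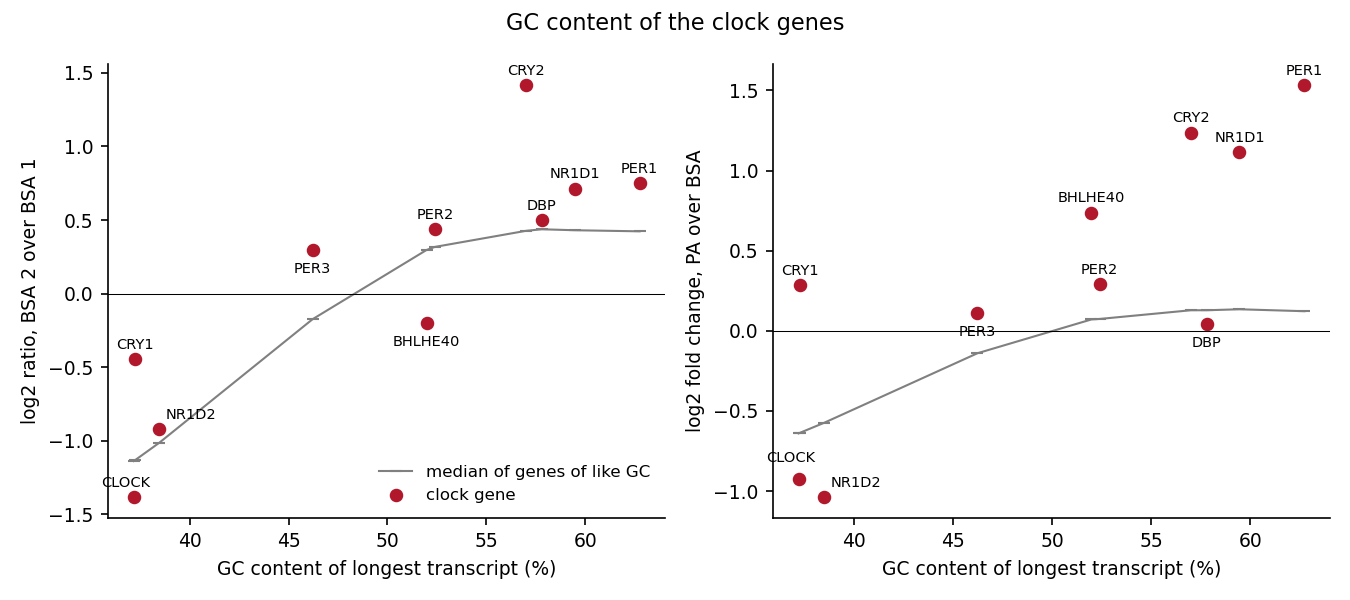
GC content of each clock gene's longest transcript against the log2 ratio of BSA replicate 2 over BSA replicate 1 (left) and the log2 fold change of PA over BSA (right), with the median of tested genes within 5 percentage points of GC as a grey line. CLOCK and NR1D2 lie at low GC with negative values in both panels, and PER1, CRY2 and NR1D1 lie above the line at high GC in both.

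Other genes of the clock and its inputs and outputs came from 5 lists with 57 further genes in the table, 56 of them tested. edgeR called 0 of these, DESeq2 called 6 higher and 2 lower, against 6.04% and 4.41% of all genes, and limma-voom called 0. At an unadjusted p under 0.05 there were 9 higher and 6 lower, against the 13.1% and 11.2% of all genes given above. Their median log2 fold change was -0.14, beside -0.12 for all genes.

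Among 6 activators and ROR receptors, 1 was higher and 1, NPAS2, was lower at an unadjusted p under 0.05. Over all genes, 13.1% were higher and 11.2% lower. RORB had 9 and 2 counts in PA and 10 and 19 in BSA. Among 7 other repressors and PAR bZIP factors, 0 were past that threshold, and the smallest p values belonged to CIART, NFIL3 and CIPC. CIART, a repressor of the loop, was at 1.07 and 0.261 CPM in PA and 0.435 and 2.23 CPM in BSA, and NFIL3, a repressor at D-boxes, at 77.96 and 61.5 CPM in PA and 140.3 and 51.5 CPM in BSA. Their groups overlapped. CIPC, which binds CLOCK, was at 35.9 and 33.3 CPM in PA and 33.2 and 24.9 CPM in BSA.

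Of 24 kinases, ligases and cofactors, 1 was higher and 2 were lower at that threshold, against 13.1% and 11.2% of all genes. USP2, a ubiquitin protease under clock control, had 1219 and 956 counts in PA and 222 and 331 in BSA, or 41.9 and 41.6 CPM in PA and 7.43 and 10.4 CPM in BSA. That is 4.69-fold the BSA level (log2 fold change 2.23 ± 0.31 SE; edgeR adjusted p = 0.0654). SFPQ, an RNA-binding protein of the PER complex, was at 245 and 209 CPM in PA and 589.7 and 484 CPM in BSA (log2 fold change -1.24 ± 0.23; adjusted p = 0.0826).

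Of 10 clock-controlled outputs, 4 were higher and 1 was lower at that threshold, against 13.1% and 11.2% of all genes. KLF10, a repressor of metabolic genes, was at 436 and 487 CPM in PA and 200.5 and 199 CPM in BSA, 2.31-fold (log2 fold change 1.21 ± 0.20 SE; edgeR adjusted p = 0.0748). NOCT, nocturnin, a rhythmic phosphatase of dinucleotide cofactors, was at 46.9 and 48.8 CPM in PA and 19.9 and 26.7 CPM in BSA (1.04 ± 0.27; adjusted p = 0.123). PDK4, a brake on pyruvate oxidation and also a target of fatty-acid-activated PPAR receptors, was at 164 and 154 CPM in PA and 42.9 and 9.13 CPM in BSA (2.61 ± 0.74; adjusted p = 0.138). All 3, named for the smallest p of their list, had PA libraries above both BSA libraries, as did 28.9% of all genes tested. The others past the threshold, named after their values were seen, were ELOVL3, a fatty acid elongase gene, and WEE1, a cell cycle kinase gene. ELOVL3 was at 5.64 and 7.002 CPM in PA and 3.41 and 2.16 CPM in BSA (1.18 ± 0.39; adjusted p = 0.166). WEE1 was at 84.6 and 78.5 CPM in PA and 262 and 115 CPM in BSA (-1.21 ± 0.42; adjusted p = 0.181).

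Of 12 tested glucocorticoid and cAMP-responsive genes, PER1 among them, 4 were higher and 2 were lower at that threshold. Over all genes, 13.1% were higher and 11.2% lower. The log2 fold change was positive for 5 of the 12 and negative for 7, with a list median of -0.16. NR4A1, an immediate early nuclear receptor, was at 298 and 405 CPM in PA and 117 and 93.5 CPM in BSA (log2 fold change 1.74 ± 0.26 SE; edgeR adjusted p = 0.0689). SIK1, a kinase gene induced by cAMP, was at 126 and 116 CPM in PA and 58.1 and 60.3 CPM in BSA (1.03 ± 0.20; adjusted p = 0.0855). DUSP1, a phosphatase that ends MAP kinase signals, was at 497 and 529 CPM in PA and 268 and 229 CPM in BSA (1.05 ± 0.21; adjusted p = 0.0873). The 2 lower genes, named after their values were seen, were CREM and NR3C1. CREM, a transcription factor gene of the cAMP pathway, was at 58.9 and 66.4 CPM in PA and 152 and 95.6 CPM in BSA (-0.98 ± 0.29; adjusted p = 0.148). NR3C1, the glucocorticoid receptor gene, was at 37.4 and 31.4 CPM in PA and 201 and 46.1 CPM in BSA (-1.84 ± 0.70; adjusted p = 0.201), with BSA replicate 1 far above the other libraries.

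**Figure D5:**
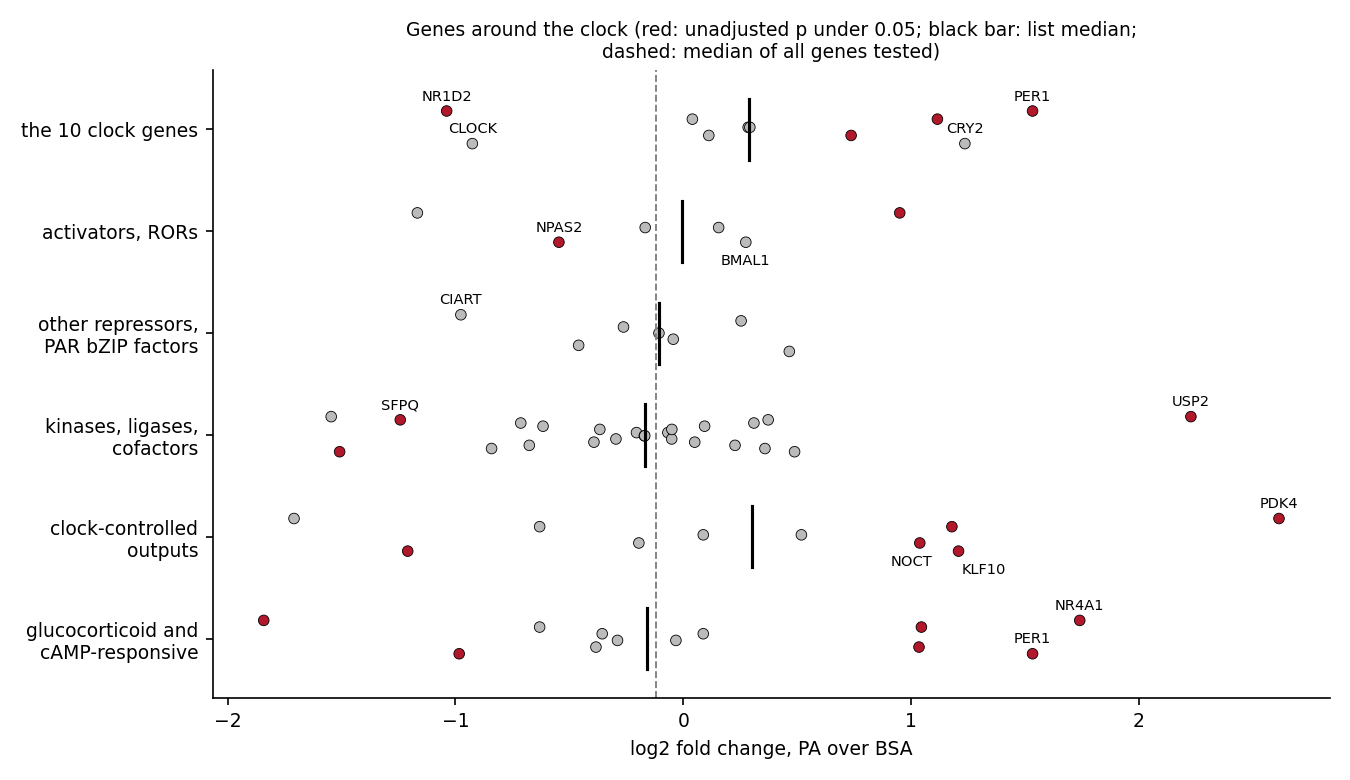
Log2 fold change of PA over BSA for the tested genes of each clock list, with genes at an unadjusted edgeR p under 0.05 in red, the list median as a black bar and the median of all genes tested (-0.12) as a dashed line. The list medians lie between -0.17 and 0.30, and PDK4, USP2, NR4A1 and PER1 lie farthest to the right.

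Among 62 genes of these lists with a mean of at least 1 CPM, those with values most like PER1 over the 4 libraries were NR1D1, CRY2 and NOCT. The root mean square difference of their centred log2 CPM from that of PER1 was 0.21, 0.26 and 0.30. Likeness over 4 libraries describes these libraries only.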

How the data were processed

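RNA from 4 libraries of TOV-112D cells was analysed, 2 labelled PA and 2 labelled BSA, grouped by sample title. HISAT2, StringTie and SAMtools and the build hg38 are named in the submitters' processing notes. How reads were counted, with which annotation and whether by strand, is not given in the sources used here. One deposited table gave raw counts per gene and the authors' FPKM values, per the file headers. The test of counts used edgeR 4.0.16 in R 4.3.3 (TMM factors, filterByExpr, quasi-likelihood F test, Benjamini-Hochberg adjustment over all 17449 tested genes at 0.05), without a replicate block. Standard errors are the log2 fold change over the square root of F, and CPM is TMM-normalised. The procedure was tested on simulated counts, with the same dispersion of a gene in all 4 libraries and no GC trend. That test does not cover the larger spread between the BSA libraries. The replicates of each group were no copies of each other (median chi-square of their counts over genes 2.10 for PA and 23.9 for BSA).

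Alternatives were other size factors (RLE, upper quartile), other filters, DESeq2 1.42.0, limma-voom (limma 3.58.1), a replicate block, leaving out each library, limma on log2(FPKM + 1) or log2(FPKM + 0.1), and correction for GC content and length by subtracting a loess trend (span 0.3) in both, taken from the longest GENCODE 29 transcript that 95.1% of tested genes had. Fold changes on the FPKM scales understate those of low genes.

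The 10 members and the lists were chosen with earlier results of these data known. Named were all members, BMAL1, overlapping genes, ZDHHC15, SPTLC2, and the 3 genes of each list with the smallest p. Some genes that this rule would name are not reported here. Of the overlapping genes, those with hardly any counts (such as UTS2) and BHLHE40-AS1, at 0.997 and 1.13 CPM in PA and 1.64 and 0.941 CPM in BSA, are not discussed further. Figures were drawn with matplotlib 3.10.9.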

Additional observations from a re-analysis of the deposited data

How the results depend on the processing

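Over all genes tested, edgeR called 0, and also 0 with RLE or upper-quartile factors and with a filter of 1 CPM in 2 libraries. Counts were 1302 without a filter, 1768 with DESeq2, 1 with limma-voom, 129 on log2(FPKM + 1), 1 on log2(FPKM + 0.1) and 1334 after GC and length correction, and 9 to 10467 when 1 library was left out. Called members numbered 1 without a filter, 1 with DESeq2, 2 after that correction and 0 to 7 when 1 library was left out (most without BSA replicate 2). The members' median log2 fold change ran from 0.28 to 0.43 when 1 library was left out, highest without BSA replicate 2, and was 0.20 on log2(FPKM + 1), where CLOCK was not tested. The replicate ratios of PA and BSA were not correlated across genes (0.0016). That value cannot show whether equal numbers mark paired libraries, because the BSA ratio also followed GC content. With the replicate block 537 genes and 1 member, PER1, were called.

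Of 139 member values under the alternatives, 114 kept direction and call, 18 passed in addition and 7 turned sign. Most of those 18 came from the fits against a single BSA library, which take their spread from the PA libraries only. DBP had a log2 fold change of -0.17 without BSA replicate 1 and -0.19 without PA replicate 2 (0.32 without BSA replicate 2), with -0.020 and -0.026 on log2(FPKM + 1) and log2(FPKM + 0.1), and -0.33 after that correction. PER2 had -0.0096 after that correction and PER3 had -0.0098 without BSA replicate 1. The cause was not tested. On the gene's own strand only, 2 promoters held the E-box variant and 1 the D-box. Every member had at least 188 counts in each library.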
